A study of Homo sapiens with 15 samples.

Results

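Caco-2 cells exposed to polysorbate 80 (PS80) were compared with Caco-2 cells exposed to polysorbate 20 (PS20). Members were the 5 libraries whose titles name PS80 and the 5 whose titles name PS20, 10 of the 15 libraries of the series. Both emulsifiers were given to monolayers at 0.05% for 24 h, and the remaining 5 libraries, here called Control, came from unexposed cells with no treatment. Caco-2 is an established line from a human colorectal adenocarcinoma, grown as monolayers that resemble enterocytes. It is 1 line at 1 concentration and 1 time, and the emulsifiers were matched by percent and not by number of molecules. The labels do not say whether the 5 replicates of a group were separate cultures, so the p-values measure the spread among these libraries, which may be technical.

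Polysorbates are nonionic surfactants in which a sorbitan core carries polyoxyethylene chains and is esterified with a fatty acid. PS20 carries mainly laurate, a saturated medium-chain acid, and PS80 mainly oleate, a longer acid with a double bond. Both are commercial mixtures and not single molecules. Enterocytes take up fatty acids and cholesterol at the brush border and store or export them in lipid droplets and lipoproteins. When sterol in the endoplasmic reticulum is low, the transcription factor SREBP2 raises the genes of cholesterol synthesis. Shortage of amino acids, misfolded protein or other stress leads, by phosphorylation of eIF2, to translation of the factor ATF4, which raises genes of amino acid uptake and synthesis. The unfolded protein response raises chaperones of the endoplasmic reticulum. These are textbook roles and were not measured here as activities.

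Total counts per library ranged over 6769409 to 42271053 with PS80 (median 10120136), 6749086 to 17251564 with PS20 (median 8335083) and 4183096 to 13616301 in Control (median 7291913). Values are counts relative to library size (CPM) after trimmed mean of M-values scaling. Of 13 enterocyte markers, 10 were tested, and their summed level was 11404 to 11949 CPM in the PS80 libraries, 9378 to 10072 CPM in the PS20 libraries and 11082 to 12794 CPM in the Control libraries. VIL1, CDX2, HNF4A, CDH17 and EPCAM were well above background, while KRT20 was at 0 in all libraries and CDX1 and LGALS4 stayed under 1 CPM. Goblet cell markers summed to 523 to 747 CPM in the PS80 libraries, 777 to 944 CPM in the PS20 libraries and 456 to 685 CPM in the Control libraries, nearly all from AGR2, with MUC2 and CLCA1 at 0 in both emulsifier groups. Enteroendocrine markers summed to 1.19 to 3.30 CPM in the PS80 libraries, 3.10 to 3.95 CPM in the PS20 libraries and 0.429 to 2.39 CPM in the Control libraries, with CHGA at 0 throughout. Markers of fibroblasts, endothelium and blood cells summed to 149.9 to 199 CPM in the PS80 libraries, 157 to 179 CPM in the PS20 libraries and 161 to 178 CPM in the Control libraries, and 0 of the 6 tested were called between PS80 and PS20. Of the enterocyte markers VIL1, KRT8, KRT18 and KRT19 were higher with PS80 and CDH1 was lower, with values given below. Of 3 goblet cell markers tested AGR2 was lower (-0.46, adjusted p = 0.0108 by edgeR), and the 1 enteroendocrine marker tested, CHGB, was lower (-0.69, adjusted p = 0.0223 by edgeR), a call that ended without PS80 replicate 2 or PS20 replicates 4 or 5 (edgeR adjusted p 0.0539 to 0.0572). AGR2 and CHGB were chosen after their values were seen. The part of these markers in the results was not tested. In bulk RNA, fewer cells of a type and less RNA per cell cannot be told apart.

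One library stood apart. PS80 replicate 2, the most deeply sequenced, had a summed level of replication-dependent histone mRNAs of 1018 CPM, against 71.6 to 89.6 CPM in the other PS80 libraries, 41.0 to 65.5 CPM in PS20 libraries and 117 to 160.0 CPM in Control libraries. In the same library RMRP, the RNA of an endoribonuclease, stood at 876 CPM (3.75 to 15.5 CPM in the other PS80 libraries and 5.03 to 16.7 CPM with PS20), and RN7SL1, the RNA of the signal recognition particle, at 539 CPM (21.6 to 42.01 CPM and 19.7 to 34.6 CPM). The mitochondrial ribosomal RNA MT-RNR1 was at 6878 CPM there, against 518 to 800 CPM in the other PS80 libraries and 594 to 1070 CPM with PS20. These 3 RNAs were chosen after their values were seen. Such RNAs lack a long poly(A) tail, and their part in the results was not tested. Each main result is therefore also given without PS80 replicate 2. PS80 replicates 1, 3, 4 and 5 were counted with featureCounts 2.0.3 and the other 11 libraries with 2.0.0, so in those 4 libraries the counting version and PS80 cannot be told apart. PS80 replicate 2, counted like PS20, gives a value without that overlap, printed below for the main lists and for those whose median had the other sign in it.

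Of 12769 genes tested, 4501 (35.2%) differed between PS80 and PS20 at an adjusted p under 0.05 by edgeR's quasi-likelihood test. PS80 was the higher in 2301 (18%) and the lower in 2200 (17.2%). Most differences were small: the median called gene changed 1.27-fold, and 3640 of the called genes (80.9%) changed by less than 1.5-fold. Differences past 2-fold were found for 194 genes (1.52%), of which 67 (0.525%) were higher and 127 (0.995%) lower with PS80. The 5 PS80 values and the 5 PS20 values did not overlap in 2902 genes (22.7%), of which 2780 (21.8%) were also called. The 95% interval lay wholly within 1.5-fold either way in 9248 genes (72.4%). Of these 6500 (50.9% of all tested) were not called, so that a larger difference in them is outside the interval in these libraries. Without PS80 replicate 2, 3929 of the 4501 called genes (87.3%) were called again, and of the 127 genes past 2-fold lower 126 were called again and 118 stayed past 2-fold. Of the 67 past 2-fold higher, 58 were called again and 52 stayed past 2-fold. Only 1 pair of compounds was compared, and the 12769 p-values were adjusted together. Against Control, 4243 genes (33.2%) were called with PS80, 2199 (17.2%) higher and 2044 (16%) lower, and 6150 (48.2%) with PS20, 3099 (24.3%) higher and 3051 (23.9%) lower. Both of those comparisons share the Control libraries. Beside the 35.2% of all genes, the share of called members was 39.3% for phospholipid and sphingolipid synthesis, 45.8% for lipid droplets, 36.8% for aminoacyl-tRNA synthetases, 44.4% for heat shock chaperones, 40.6% for immediate early genes, 42.9% for brush border genes, 40.0% for microvillus genes, 32.3% for tight junctions, 42.9% for basement membrane and matrix and 42.9% for apoptosis. That share was 33.3% for EGF receptor signalling and the urokinase system, 40% for apolipoproteins and lipoprotein assembly and 21.4% for inflammatory genes. The counts of all these lists are given as a description.

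**Figure D1:**
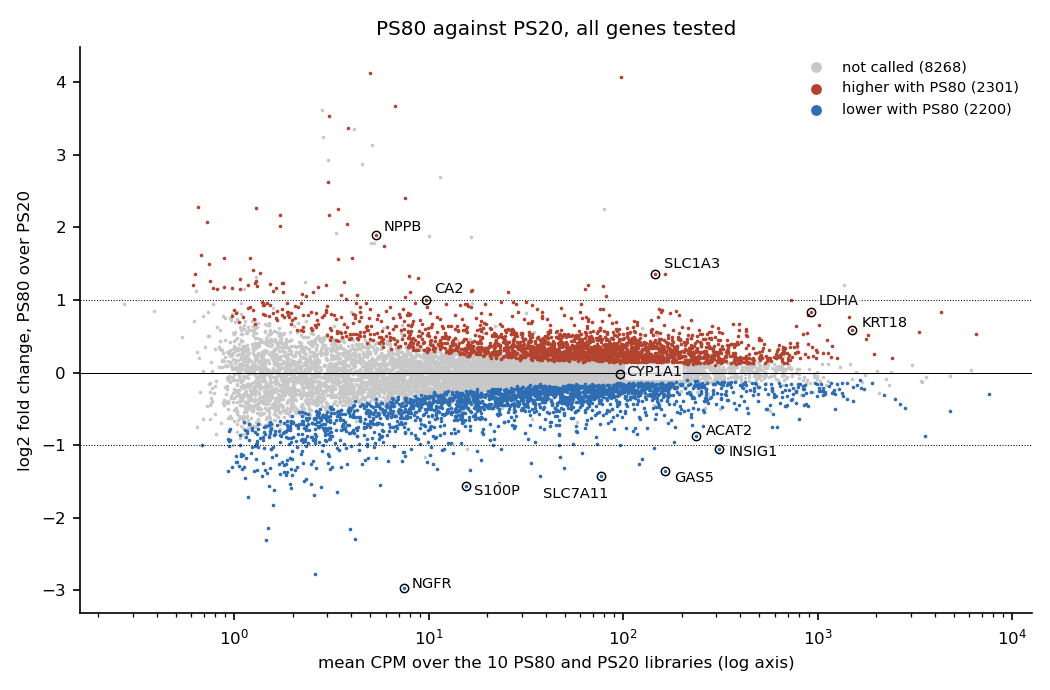
Each point is 1 of the 12769 tested genes, with its mean level over the 10 emulsifier libraries (CPM, log axis) against its PS80 minus PS20 log2 fold change. Genes called by edgeR are coloured by direction, and the labelled genes reach from NPPB (1.90) to NGFR (-2.96).

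Genes of cholesterol synthesis were lower with PS80 than with PS20. Of 26 genes of this pathway and of SREBP2's targets, 24 were lower, 1 was higher and 1 did not pass the test, beside 17.2% lower and 18% higher over all genes. Their median log2 fold change was -0.48, beside -0.0021 over all genes tested. Their summed level was 5440.1 to 6197 CPM in the PS80 libraries, 7253 to 8717 CPM in the PS20 libraries and 5574 to 6314 CPM in the Control libraries, so the PS80 and PS20 ranges did not overlap and the PS80 range lay within that of Control at all but its low end. Over Control, 2 of these 26 genes were higher and 5 lower in PS80 cells (median -0.039), and 22 were higher and 2 lower in PS20 cells (median 0.42). With a replicate block 4 were higher and 6 lower in PS80 cells than in Control. ACAT2 (ENSG00000120437.9, chr6:159762045-159779112, plus strand), which joins acetyl units at the head of the pathway, had 179.6, 169.5, 159, 151 and 177 CPM in PS80 replicates 1 to 5, against 317, 351, 266, 307 and 297 CPM in PS20 replicates 1 to 5. Every PS80 library was below every PS20 library. The log2 fold change of ACAT2 was -0.88 ± 0.062 (SE), with a 95% interval from -1.002 to -0.75 and an edgeR adjusted p of 2.25e-10, and its level was 180.1 ± 7.97 CPM in Control cells (SD, n = 5). ACAT2 shares 22.2% of its exonic bases with another gene, where reads could not be assigned.

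The late step catalysed by DHCR7, 7-dehydrocholesterol reductase (ENSG00000172893.18, chr11:71428193-71452868, minus strand), moved with the early one. DHCR7 had 639, 669, 596, 581 and 617 CPM across the PS80 replicates, against 987, 1118, 881, 947 and 923 CPM across the PS20 replicates, again without overlap, for a log2 fold change of -0.65 ± 0.057 (SE), with a 95% interval from -0.76 to -0.53 and an edgeR adjusted p of 8.71e-09. SQLE, squalene epoxidase, had 222, 201, 215, 208 and 218 CPM across the PS80 replicates, against 308, 332, 302, 319.5 and 289 CPM across the PS20 replicates. Its groups did not overlap either, and its log2 fold change was -0.54 (edgeR adjusted p = 1.29e-08). MVD, mevalonate diphosphate decarboxylase, had a log2 fold change of -0.72 (edgeR adjusted p = 1.02e-07), with means of 170.4 ± 18.5 CPM in PS80 cells, 282 ± 24.96 CPM in PS20 cells and 152 ± 11.9 CPM in Control cells (SD, n = 5 each). HMGCS1, a synthase of the early pathway, had a smaller log2 fold change of -0.31 (edgeR adjusted p = 0.00106), and its PS80 and PS20 libraries overlapped. SREBF2, which encodes SREBP2 itself, was lower, with a log2 fold change of -0.22 (edgeR adjusted p = 0.00256). PMVK, phosphomevalonate kinase, was the 1 gene of the list that did not pass, at -0.0083 (interval -0.15 to 0.13).

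INSIG1, its divergent transcript and NPC1L1 were lower with PS80 too. INSIG1 (ENSG00000186480.13, chr7:155297776-155310235, plus strand) encodes a protein of the endoplasmic reticulum that holds back SREBP processing and is itself an SREBP target. It had 264, 199.9, 188, 176 and 180.1 CPM in PS80 replicates 1 to 5, against 470.2, 518, 373, 377 and 348 CPM in PS20 replicates 1 to 5. PS80 replicate 1 was the highest PS80 library and still below every PS20 library. INSIG1 had a log2 fold change of -1.05 ± 0.15 (SE), with a 95% interval from -1.36 to -0.73 and an edgeR adjusted p of 1.35e-04. The divergent transcript INSIG1-DT had 3.44, 3.82, 2.09, 1.82 and 2.53 CPM across the PS80 replicates, against 8.87, 8.51, 8.52, 8.72 and 8.03 CPM across the PS20 replicates, a log2 fold change of -1.55 (edgeR adjusted p = 1.05e-07). NPC1L1 (ENSG00000015520.15, chr7:44512535-44541330, minus strand), the intestinal cholesterol importer, had 32.1, 35.4, 25.5, 23.3 and 23.96 CPM in PS80 replicates 1 to 5, against 85.3, 85.6, 59.5, 63.6 and 61.2 CPM in PS20 replicates 1 to 5. Its PS80 values were all below its PS20 values and its log2 fold change was -1.31 ± 0.14 (SE), with a 95% interval from -1.60 to -1.02 and an edgeR adjusted p of 2.55e-06. Over Control, NPC1L1 had log2 fold changes of -0.0069 in PS80 cells and 1.30 in PS20 cells. In the list of sterol efflux and LXR targets, NPC1L1 and LPCAT3, which remodels phospholipids, were the 2 of 9 tested genes that were lower (22.2%, beside 17.2% over all genes), and 0 were higher. The median of that list was -0.16, and 0.036 with PS80 replicate 2 as the only PS80 library. That count was 6 without PS80 replicate 2 and 4 without Control replicate 1. HMGCS1, INSIG1, SREBF2 and PMVK were chosen after their values were seen.

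The letters of a sterol regulatory element, TCACNCCAC, were searched on both strands of RefSeq promoters (GRCh38.p14, 250 bases before to 50 after each gene's start). They occurred in 396 of 35116 promoters (1.13%). Some genes have several promoters, and a gene was counted as holding the motif if any of its promoters did. Counts of genes are therefore not on the same footing as that share of promoters. Of the 26 genes of the cholesterol list 19 had a promoter in the table, and 1 of them, SREBF2, held the motif. Of the list of lipid droplet genes, 21 had one and 3 held it, among them ACSL1, which activates long-chain fatty acids. The promoters of SREBF2 (chr22:41832855-41833154, plus strand) and ACSL1 (chr4:184805504-184805803, minus strand) are shown because both genes were lower with PS80, and SREBF2 was picked after its match was seen. Both are printed 5′ to 3′ on the gene's strand, with the motif in capitals, which starts at position -133 from the gene start in SREBF2 and at -242, on the opposite strand, in ACSL1. Another ACSL1 promoter, upstream of the printed one (chr4:184825919-184826218, minus strand), did not hold the motif. A match is a description of the sequence and not of binding.
SREBF2: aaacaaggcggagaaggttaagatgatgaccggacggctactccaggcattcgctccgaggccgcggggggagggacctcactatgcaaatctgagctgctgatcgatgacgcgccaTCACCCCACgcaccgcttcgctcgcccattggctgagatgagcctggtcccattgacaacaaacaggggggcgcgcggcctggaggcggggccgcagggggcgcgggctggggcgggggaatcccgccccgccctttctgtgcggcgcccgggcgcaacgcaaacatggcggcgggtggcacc
ACSL1: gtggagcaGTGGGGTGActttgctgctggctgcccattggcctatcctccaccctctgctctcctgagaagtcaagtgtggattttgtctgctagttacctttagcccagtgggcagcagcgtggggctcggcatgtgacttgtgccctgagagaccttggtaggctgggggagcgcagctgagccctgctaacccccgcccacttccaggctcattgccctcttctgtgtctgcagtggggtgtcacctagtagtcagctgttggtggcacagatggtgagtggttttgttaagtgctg

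**Figure D2:**
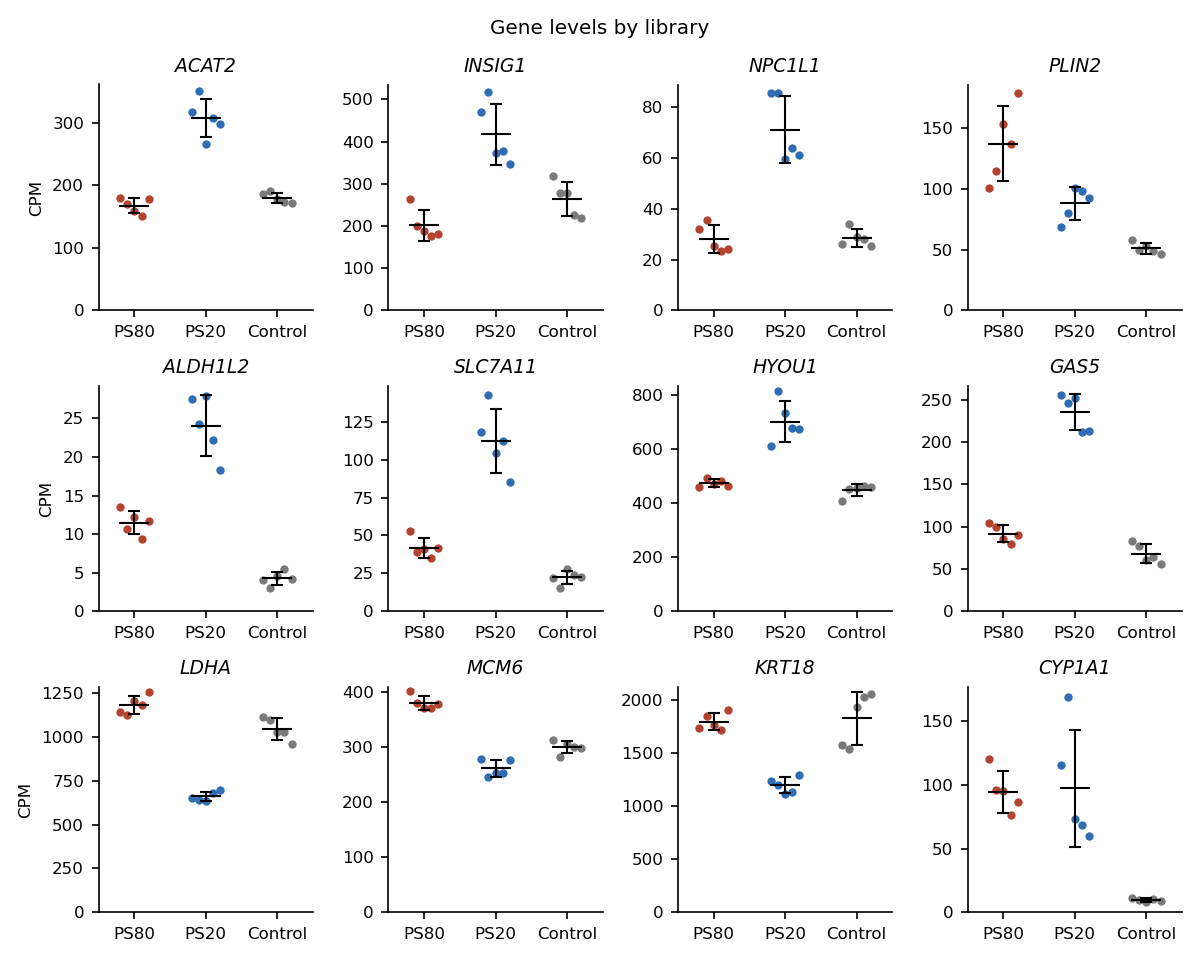
Level (CPM) of 12 genes in each library, with PS80 left, PS20 in the middle and Control right; points are libraries and bars give the mean ± SD (n = 5 each). ACAT2, INSIG1, NPC1L1, ALDH1L2, SLC7A11, HYOU1 and GAS5 sit lower with PS80 than with PS20, PLIN2, LDHA, MCM6 and KRT18 sit higher, and the CYP1A1 values of both emulsifiers overlap over the 5 replicates.

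The desaturase SCD and the fatty acid activating enzyme ACSL1 were lower with PS80, while the droplet coat gene PLIN2 was higher. Of 16 genes of fatty acid synthesis and desaturation 9 were lower and 2 higher (median -0.19). SCD (ENSG00000099194.6, chr10:100347233-100364826, plus strand), which makes oleate from stearate, had 2892, 2755, 2278, 2317 and 2298 CPM in PS80 replicates 1 to 5, against 5092, 5061, 4175, 4455 and 4213 CPM in PS20 replicates 1 to 5. All PS80 libraries were lower, and the log2 fold change was -0.87 ± 0.094 (SE), with a 95% interval from -1.07 to -0.68 and an edgeR adjusted p of 2.61e-06. Over Control, SCD had log2 fold changes of -0.41 in PS80 cells and 0.47 in PS20 cells, and both passed the test (edgeR adjusted p = 0.00329 and 5.89e-04). ACSS2, which turns acetate into acetyl-CoA, was lower (-0.75, adjusted p = 2.49e-04 by edgeR), as were SREBF1, the sister factor of SREBP2 (-0.46, adjusted p = 1.22e-04), and the desaturase FADS1 (-0.31, adjusted p = 1.65e-04). FASN, fatty acid synthase, was chosen after its values were seen and did not pass, with a log2 fold change of -0.059 and an interval of -0.19 to 0.068. The 2 genes that were higher were the elongase ELOVL1 (0.23, adjusted p = 5.94e-04 by edgeR) and the desaturase SCD5 (0.66, adjusted p = 0.0279). The call of SCD5 ended without PS80 replicates 1, 2 or 4 or PS20 replicates 3, 4 or 5 (edgeR adjusted p 0.0534 to 0.0859).

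Of 24 genes of lipid droplets and triglyceride turnover 8 were lower and 3 higher with PS80 (median -0.081), beside 35.2% called over all genes. With PS80 replicate 2 as the only PS80 library 3 were lower and 2 higher, and the median was 0.11. Some enzymes that feed triglyceride synthesis were among the lower ones. GPAM, which starts glycerolipid synthesis, had 104, 96.4, 108, 109.5 and 108 CPM across the PS80 replicates, against 165, 146, 151, 159 and 142 CPM across the PS20 replicates. ACSL1 had 58.9, 66.1, 77.7, 59.3 and 69.03 CPM across the PS80 replicates, against 98.6, 117, 119, 119 and 112 CPM across the PS20 replicates. Neither gene's groups overlapped, and the log2 fold changes were -0.54 for GPAM and -0.78 for ACSL1 (edgeR adjusted p = 1.07e-07 and 1.77e-07). ACSL3 was lower at -0.55 and the phosphatidate phosphatase LPIN1 at -0.83 on the log2 scale (edgeR adjusted p = 6.17e-07 and 5.31e-04). PLIN2 (ENSG00000147872.10, chr9:19108375-19149290, minus strand), whose protein coats lipid droplets, had 101, 115, 153, 137 and 179 CPM in PS80 replicates 1 to 5, against 68.6, 80.1, 101, 98.2 and 92.4 CPM in PS20 replicates 1 to 5. Here every PS80 library was above every PS20 library, with a log2 fold change of 0.63 ± 0.14 (SE), with a 95% interval from 0.33 to 0.94 and an edgeR adjusted p of 0.00345. Over Control, PLIN2 had log2 fold changes of 1.43 in PS80 cells and 0.80 in PS20 cells, with edgeR adjusted p of 9.93e-06 and 6.44e-04. The other 2 genes that were higher were PLIN3, which encodes another coat protein, and LPIN3, a sister of LPIN1, which had a log2 fold change of 0.58 (edgeR adjusted p = 0.00276), with overlapping groups.

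Fatty acid oxidation genes moved in both directions. Of 25 tested 8 were lower and 5 higher (median 0.064). FABP1, the fatty acid binding protein of liver and enterocytes, was lower with PS80 at 95.4 ± 9.94 CPM in PS80 cells, 149 ± 14.7 CPM in PS20 cells and 102 ± 12.6 CPM in Control cells (SD, n = 5 each), a log2 fold change of -0.64 (edgeR adjusted p = 4.58e-06). ACADVL, the dehydrogenase for very long chains, was lower (-0.46, adjusted p = 1.33e-05 by edgeR), as were the thioesterases ACOT2 (-0.59, adjusted p = 3.32e-05) and ACOT1 (-0.65, adjusted p = 7.29e-04), near-identical copies whose counts are uncertain. EHHADH, of peroxisomal oxidation (0.41, adjusted p = 5.27e-05 by edgeR), HADHB, of the mitochondrial trifunctional protein (0.19, adjusted p = 0.00370), ACAA2, ETFDH and ETFA were higher. Without PS80 replicate 3, PS20 replicate 1 or PS20 replicate 3, 3 of these 5 were called. CPT1A, the carnitine transferase that admits fatty acids to mitochondria, was chosen after its values were seen. It was higher than Control with each emulsifier (log2 fold changes of 1.26 in PS80 cells and 1.37 in PS20 cells, edgeR adjusted p = 2.22e-10 and 2.39e-12) and not called between them, at -0.11 with an interval of -0.27 to 0.045.

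Among 10 genes of apolipoproteins and lipoprotein assembly, APOC1 (-0.36, adjusted p = 0.00114 by edgeR) and APOE (-0.25, adjusted p = 0.0146) were lower and APOH (0.41, adjusted p = 0.00688) and MTTP, the lipid transfer protein of lipoprotein assembly (0.96, adjusted p = 0.0423), were higher. MTTP averaged under 3 CPM in each group, and its call ended without PS80 replicates 1 or 2, PS20 replicates 1, 2, 3 or 5 or Control replicate 4 (edgeR adjusted p 0.0516 to 0.141). Of 28 genes of phospholipid and sphingolipid synthesis 8 were higher and 3 lower (median 0.046), a share of 39.3% called beside 35.2% over all genes. CHKA (ENSG00000110721.12, chr11:68052859-68121444, minus strand), choline kinase, the first enzyme of phosphatidylcholine synthesis, had 79.9, 81.7, 105, 117 and 109 CPM in PS80 replicates 1 to 5, against 56.2, 44.96, 53.3, 55.5 and 57.98 CPM in PS20 replicates 1 to 5. The groups were apart, and the log2 fold change was 0.87 ± 0.093 (SE), with a 95% interval from 0.68 to 1.07 and an edgeR adjusted p of 4.60e-07. Over Control, CHKA was lower with both emulsifiers, with log2 fold changes of -0.68 in PS80 cells and -1.55 in PS20 cells (edgeR adjusted p = 1.02e-05 and 5.10e-11). PTDSS1, phosphatidylserine synthase (0.34, adjusted p = 2.22e-05 by edgeR), LPCAT4, a lysophospholipid acyltransferase (0.46, adjusted p = 0.00709), and DEGS1, the desaturase of ceramide synthesis (0.26, adjusted p = 0.00763), were higher too. The 3 lower genes were CHPT1, CDIPT, phosphatidylinositol synthase (-0.20, adjusted p = 0.00704 by edgeR), and LPCAT3 (-0.22, adjusted p = 0.00346), of whose exonic bases 65.97% overlap another gene.

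Targets of ATF4 were lower with PS80 than with PS20. Of 29 tested genes of the integrated stress response 20 were lower, 1 was higher and 8 did not pass (median -0.36). Over Control, 15 of these 29 genes were higher and 3 lower in PS80 cells (median 0.35), and 22 were higher and 1 lower in PS20 cells (median 0.82). Of the 32 genes listed, ASNS, NUPR1 and FGF21 had too few counts to be tested. SLC7A11 (ENSG00000151012.13, chr4:138164097-138242349, minus strand), the cystine importer, had 52.6, 39.01, 40.8, 35.3 and 41.5 CPM in PS80 replicates 1 to 5, against 118, 142, 104, 112 and 85.2 CPM in PS20 replicates 1 to 5. The lowest PS20 library stood above the highest PS80 library. SLC7A11 had a log2 fold change of -1.42 ± 0.14 (SE), with a 95% interval from -1.72 to -1.13 and an edgeR adjusted p of 2.20e-06, and over Control 0.93 in PS80 cells and 2.35 in PS20 cells. ALDH1L2 (ENSG00000136010.14, chr12:105019784-105107643, minus strand), a mitochondrial enzyme of folate metabolism, had 13.5, 10.7, 12.2, 9.43 and 11.7 CPM in PS80 replicates 1 to 5, against 27.5, 24.3, 27.9, 22.1 and 18.3 CPM in PS20 replicates 1 to 5. Again no library of one group reached the other, and the log2 fold change was -1.08 ± 0.12 (SE), with a 95% interval from -1.33 to -0.82 and an edgeR adjusted p of 3.63e-07.

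DDIT4, which restrains mTOR, had 24.2, 19.9, 21.9, 16.5 and 18.7 CPM across the PS80 replicates, against 53.2, 76.7, 47.9, 48.5 and 45.5 CPM across the PS20 replicates. DDIT3, the factor CHOP, had 13.8, 9.75, 6.71, 7.16 and 8.43 CPM across the PS80 replicates, against 23.2, 29.8, 24.5, 22.1 and 17.8 CPM across the PS20 replicates, and 39.6% of its exonic bases overlap another gene. Both were lower in every PS80 library, with log2 fold changes of -1.43 and -1.34 (edgeR adjusted p = 3.77e-06 and 7.71e-07). ATF4 itself had 307, 289.6, 271, 259 and 273 CPM across the PS80 replicates, against 357, 388, 349.7, 362 and 338 CPM across the PS20 replicates. That is a narrower gap, without overlap, and a log2 fold change of -0.36 ± 0.053 (SE), with a 95% interval from -0.47 to -0.25 and an edgeR adjusted p of 1.05e-05. TRIB3, a pseudokinase induced by ATF4, was lower at -0.95, CHAC1, which degrades glutathione, at -0.99 and ATF3, a factor induced beside ATF4, at -0.64 (edgeR adjusted p = 2.86e-04, 2.53e-05 and 4.15e-04). SESN2, a sestrin that senses leucine, and STC2, stanniocalcin, had log2 fold changes of -0.77 and -0.53 (edgeR adjusted p = 1.81e-06 and 1.15e-06). SLC7A1, an importer of cationic amino acids, was lower at -0.22 (edgeR adjusted p = 0.00627), with overlapping groups. The 1 gene that was higher was SLC7A5, an importer of large neutral amino acids, at 593 ± 41.2 CPM in PS80 cells, 434 ± 26.5 CPM in PS20 cells and 435 ± 88.04 CPM in Control cells (SD, n = 5 each) and a log2 fold change of 0.45 (edgeR adjusted p = 0.00526). ATF4, ATF3, CHAC1, SLC7A1 and TRIB3 were chosen after their values were seen.

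Of 19 tested cytosolic aminoacyl-tRNA synthetases 5 were lower and 2 higher (median -0.073). Over Control, 10 of these 19 genes were higher and 0 lower in PS80 cells (median 0.21), and 13 were higher and 0 lower in PS20 cells (median 0.22). WARS1, for tryptophan (-0.69, adjusted p = 4.56e-07 by edgeR), SARS1, for serine (-0.47, adjusted p = 4.83e-06), AARS1, for alanine (-0.42, adjusted p = 3.12e-05), and EPRS1, for glutamate and proline (-0.25, adjusted p = 1.61e-04), were lower. FARSA, for phenylalanine (0.25, adjusted p = 0.00201 by edgeR), and HARS1, for histidine (0.25, adjusted p = 0.00806), were higher. The letters TGATGNAA, the core of an ATF4 response element, were found on either strand in 1270 of 35116 RefSeq promoters (3.62%). They were found in 7 of the 27 stress response genes with a promoter in the table and in 7 of the 16 synthetases with one. These are counts of genes with a match in any promoter, while the 3.62% is over promoters. Promoters are shown for AARS1 (chr16:70289457-70289756, minus strand), CHAC1 (chr15:40953221-40953520, plus strand), ATF3 (chr1:212565157-212565456, plus strand) and SLC7A1 (chr13:29595639-29595938, minus strand), whose genes were all lower with PS80. The last 3 were picked after their matches were seen, and only lower genes are shown. The 7 stress response genes with the letters were ASNS, ATF3, CEBPG, CHAC1, FGF21, SLC3A2 and SLC7A1, of which ASNS and FGF21 were not tested. DDIT4, DDIT3, TRIB3 and STC2, which were lower and had a promoter in the table, did not hold the letters. The 7 synthetases with the letters were AARS1, CARS1, GARS1, IARS1, MARS1, NARS1 and TARS1. Neither WARS1, SARS1 and EPRS1, which were lower, nor FARSA and HARS1, which were higher, held them. Capitals mark the motif, which starts at -187 in AARS1 and -209 in CHAC1, both on the opposite strand, at -191 in ATF3 and at 7 in SLC7A1. The match in each is a description of letters.
AARS1: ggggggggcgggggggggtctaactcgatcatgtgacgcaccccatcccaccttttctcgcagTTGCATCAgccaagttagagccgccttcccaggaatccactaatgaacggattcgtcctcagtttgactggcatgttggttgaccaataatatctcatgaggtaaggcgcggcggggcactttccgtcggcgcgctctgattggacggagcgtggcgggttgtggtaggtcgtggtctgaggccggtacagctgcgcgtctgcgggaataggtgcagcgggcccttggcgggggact
CHAC1: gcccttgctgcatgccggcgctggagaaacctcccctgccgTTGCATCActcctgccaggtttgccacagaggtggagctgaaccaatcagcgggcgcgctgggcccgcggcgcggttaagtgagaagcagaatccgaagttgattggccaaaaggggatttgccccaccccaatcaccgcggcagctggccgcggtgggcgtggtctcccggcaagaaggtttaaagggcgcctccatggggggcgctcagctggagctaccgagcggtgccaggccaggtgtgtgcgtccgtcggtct
ATF3: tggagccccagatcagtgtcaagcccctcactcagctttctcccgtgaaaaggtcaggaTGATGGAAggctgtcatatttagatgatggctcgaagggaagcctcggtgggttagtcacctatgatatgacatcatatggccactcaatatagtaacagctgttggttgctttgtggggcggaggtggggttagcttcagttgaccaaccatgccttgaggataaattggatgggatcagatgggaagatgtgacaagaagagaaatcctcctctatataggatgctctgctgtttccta
SLC7A1: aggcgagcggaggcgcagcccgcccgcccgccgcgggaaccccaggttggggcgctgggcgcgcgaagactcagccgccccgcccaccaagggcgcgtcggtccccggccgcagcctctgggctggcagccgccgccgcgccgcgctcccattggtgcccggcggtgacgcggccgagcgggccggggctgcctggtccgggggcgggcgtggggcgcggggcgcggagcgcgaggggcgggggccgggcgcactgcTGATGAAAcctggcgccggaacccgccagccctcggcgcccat

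Chaperones of the endoplasmic reticulum were lower with PS80 as well. Of 27 genes of the unfolded protein response 19 were lower and 0 higher (median -0.31). Over Control, 5 of these 27 genes were higher and 4 lower in PS80 cells (median -0.0038), and 18 were higher and 0 lower in PS20 cells (median 0.27). HYOU1 (ENSG00000149428.21, chr11:119044188-119057227, minus strand), a chaperone of the HSP70 class, had 458, 492, 472, 483 and 463 CPM in PS80 replicates 1 to 5, against 611, 814, 731, 676 and 672 CPM in PS20 replicates 1 to 5. All PS80 libraries were below all PS20 libraries, with a log2 fold change of -0.57 ± 0.058 (SE), with a 95% interval from -0.69 to -0.44 and an edgeR adjusted p of 8.04e-08. SEL1L, a part of the degradation complex of the endoplasmic reticulum, had 183, 179, 188, 205 and 195 CPM across the PS80 replicates, against 251, 299, 267, 264 and 245 CPM across the PS20 replicates, again without overlap (log2 fold change -0.48, edgeR adjusted p = 2.00e-07). The disulfide isomerases PDIA4 and PDIA3 were both lower, with log2 fold changes of -0.37 and -0.37 (edgeR adjusted p = 1.07e-06 and 1.17e-06). HSPA5, the chaperone BiP, was chosen after its values were seen and was lower too, at 985 ± 26.1 CPM in PS80 cells, 1139 ± 83.98 CPM in PS20 cells and 891 ± 27.8 CPM in Control cells (SD, n = 5 each) (log2 fold change -0.21, edgeR adjusted p = 0.00161). The count of 19 lower genes was 19 without PS80 replicate 2, and 1 gene was higher without PS20 replicate 1.

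Of 26 NRF2 targets of the oxidative stress response 12 were lower and 3 higher (median -0.18). AKR1C2, an aldo-keto reductase, had 10.4, 10.6, 11.8, 12.7 and 11.1 CPM across the PS80 replicates, against 27.9, 27.9, 27.4, 23.4 and 22.9 CPM across the PS20 replicates. The groups were apart (log2 fold change -1.21, edgeR adjusted p = 1.65e-08), but near-identical copies make the counts of AKR1C2 and AKR1C3 (-0.46, adjusted p = 1.27e-04 by edgeR) uncertain, and likewise those of FTL, ferritin light chain (-0.48, adjusted p = 3.69e-08). The genes that were higher were the peroxiredoxin PRDX1 (0.37, adjusted p = 9.68e-07 by edgeR), glutathione reductase GSR (0.14, adjusted p = 0.0138) and transketolase TKT (0.16, adjusted p = 0.0165), the last chosen after its values were seen. The call of TKT ended without PS80 replicates 1 or 2 (edgeR adjusted p 0.0501 to 0.0504). Of 18 tested heat shock chaperones of the cytosol and mitochondria 8 were higher and 0 lower (median 0.056). With PS80 replicate 2 as the only PS80 library 1 was higher and 1 lower, and the median was -0.013. HSPE1, a mitochondrial chaperonin, had 127, 104, 126, 126 and 134 CPM across the PS80 replicates, against 81.2, 82.8, 87.7, 85.97 and 95.1 CPM across the PS20 replicates. Its groups were apart, with a log2 fold change of 0.51 (edgeR adjusted p = 3.45e-06). Its partner HSPD1 (0.26, adjusted p = 1.82e-04 by edgeR), the co-chaperone STIP1 (0.29, adjusted p = 7.48e-05) and HSPA4 (0.21, adjusted p = 3.29e-04) were higher by less. Without PS80 replicate 1, PS80 replicate 2 or PS20 replicate 1, 1 heat shock gene was lower. Of 6 tested targets of the aryl hydrocarbon receptor, ALDH3A1, an aldehyde dehydrogenase (0.52, adjusted p = 0.00232 by edgeR), and SLC7A5 were higher and the quinone reductase NQO1 (-0.24, adjusted p = 9.62e-04) was lower. Some genes belong to more than 1 list, so the list counts are not separate results. SLC7A5 is also in the list of the integrated stress response, and NQO1 in that of NRF2 targets.

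**Figure D3:**
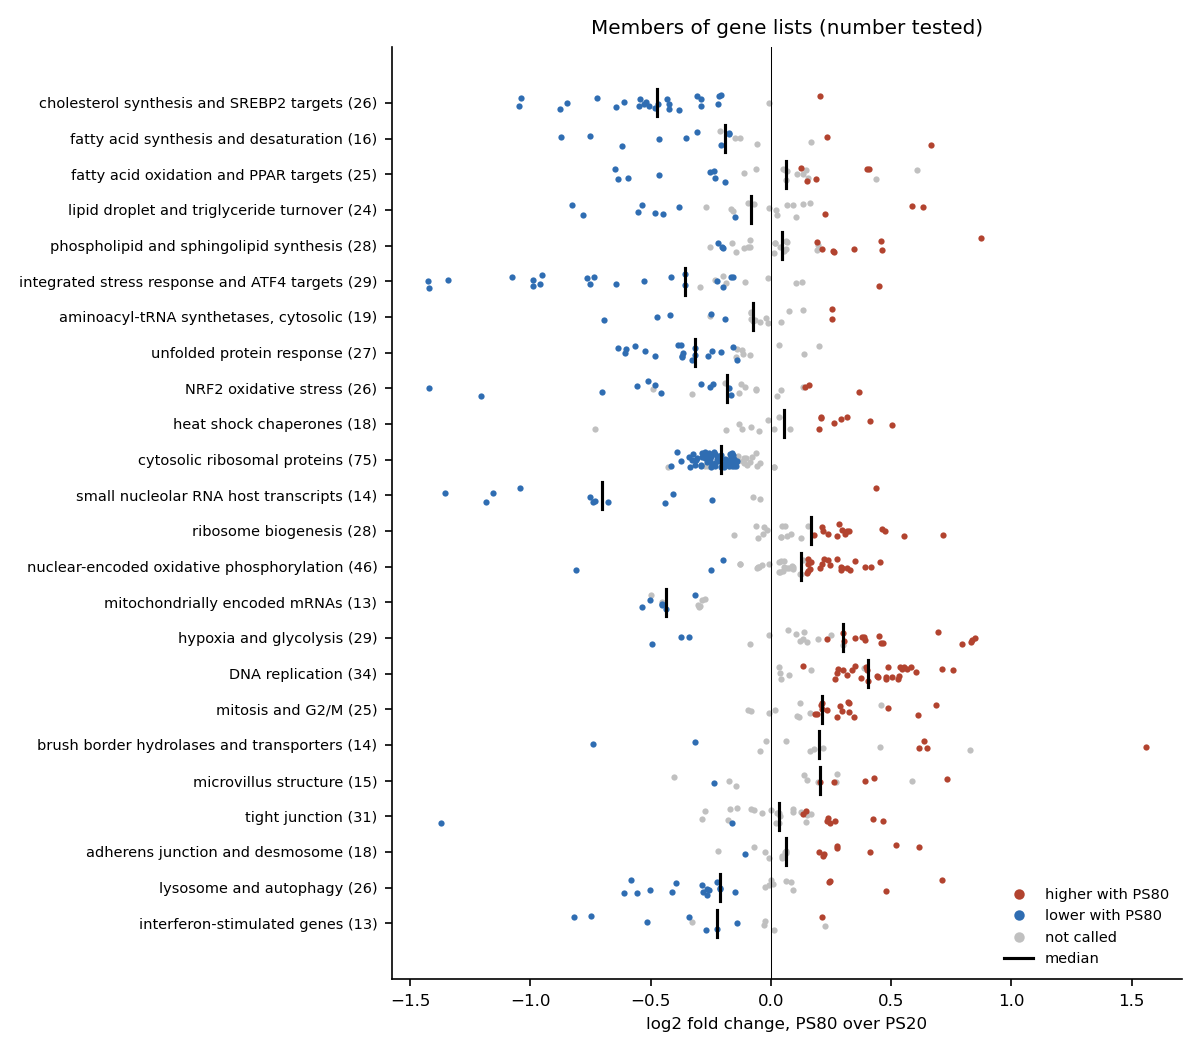
PS80 minus PS20 log2 fold change of every tested member of 24 gene lists; each point is a gene and the black bar the median of its list. Cholesterol synthesis, the integrated stress response, the unfolded protein response and small nucleolar RNA hosts lie mostly to the left of 0 (lower with PS80), and DNA replication and hypoxia and glycolysis mostly to the right.

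Transcripts of the translation machinery split in direction. Cytosolic ribosomal protein genes were slightly lower with PS80: 55 of 75 tested were lower and 0 higher, with a median of -0.21 and 74 of 75 intervals within 1.5-fold. RPL10A had 745, 679.8, 635, 613 and 655 CPM across the PS80 replicates, against 878, 994, 852, 861 and 857 CPM across the PS20 replicates, and its log2 fold change was -0.42 (edgeR adjusted p = 3.62e-06). RPS27, RPS20 and RPS29 had log2 fold changes of -0.31, -0.33 and -0.37 (edgeR adjusted p = 5.65e-06, 7.77e-06 and 1.25e-05). Ribosomal protein genes have many processed copies, so these counts are uncertain. With replicates 1 and 2 of each group alone 10 were called lower (median -0.18), and with replicates 3 to 5 alone 65 (median -0.23). Over all genes, 1644 were called with replicates 1 and 2 alone and 4943 with replicates 3 to 5 alone. Over Control, 36 of these 75 genes were higher and 0 lower in PS80 cells (median 0.15), and 66 were higher and 0 lower in PS20 cells (median 0.35).

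Host transcripts of small nucleolar RNAs, which like ribosomal protein mRNAs are often of the class that begins with a run of pyrimidines, had the lowest median of the 36 lists with at least 5 tested genes, -0.70, with 11 of 14 lower and 1 higher. Over Control, 7 of these 14 genes were higher and 0 lower in PS80 cells (median 0.31), and 12 were higher and 1 lower in PS20 cells (median 0.86). GAS5 (ENSG00000234741.10, chr1:173858559-173868882, minus strand) had 104, 99.6, 85.1, 79.8 and 89.9 CPM in PS80 replicates 1 to 5, against 255, 246, 251, 211 and 212 CPM in PS20 replicates 1 to 5. The PS20 libraries were all above the PS80 libraries, and the log2 fold change was -1.35 ± 0.094 (SE), with a 95% interval from -1.55 to -1.16 and an edgeR adjusted p of 8.85e-09. ZFAS1 (ENSG00000177410.13, chr20:49278178-49299600, plus strand), of whose exonic bases 43.1% overlap another gene, had 82.8, 67.7, 75.7, 75.7 and 79.1 CPM in PS80 replicates 1 to 5, against 164, 185, 183, 171 and 161 CPM in PS20 replicates 1 to 5. Its groups were likewise apart, with a log2 fold change of -1.19 ± 0.071 (SE), with a 95% interval from -1.33 to -1.04 and an edgeR adjusted p of 1.06e-11. EPB41L4A-AS1 and SNHG29 were lower, with log2 fold changes of -1.16 and -0.75 (edgeR adjusted p = 1.81e-10 and 1.26e-09). The 1 host that was higher, SNHG3, had a log2 fold change of 0.44 (edgeR adjusted p = 0.0259), and its call ended without PS80 replicates 1, 2 or 5 or PS20 replicates 1 or 4 (edgeR adjusted p 0.0521 to 0.0967).

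Ribosome biogenesis factors were higher instead, 14 of 28 with 0 lower (median 0.17). BOP1, which processes the large subunit's RNA, had 82.8, 75.8, 87.6, 81.5 and 80.7 CPM across the PS80 replicates, against 47.3, 47.7, 50.5, 49.3 and 53.1 CPM across the PS20 replicates, a log2 fold change of 0.71 (edgeR adjusted p = 1.49e-07). The methyltransferase fibrillarin, FBL (0.46, adjusted p = 1.07e-06 by edgeR), NOLC1 (0.47, adjusted p = 4.46e-06) and nucleolin, NCL (0.27, adjusted p = 3.09e-04), were higher by less, and in all 4 genes the groups were apart. With PS80 replicate 2 as the only PS80 library the median of this list was -0.047. Among 46 nuclear genes of oxidative phosphorylation 21 were higher and 3 lower (median 0.12), with 45 intervals within 1.5-fold. ATP5MC1 and ATP5MC3, of the ATP synthase ring (0.46, adjusted p = 1.49e-07 and 0.39, adjusted p = 2.12e-07 by edgeR), CYC1, cytochrome c1 (0.42, adjusted p = 1.49e-06), and UQCRC1 (0.29, adjusted p = 5.75e-05) were higher. COX5A (-0.20, adjusted p = 0.00597 by edgeR), NDUFB5 (-0.25, adjusted p = 0.00990) and NDUFV2 (-0.81, adjusted p = 0.0199) were lower. NDUFV2, chosen after its values were seen, lost its call without PS20 replicate 5 (edgeR adjusted p 0.0726), and without PS20 replicate 1 the lower count was 5. Of the 13 mitochondrially encoded mRNAs 6 were lower and 0 higher (median -0.44). MT-CO3 had 2319, 2181, 2296, 2144 and 2304 CPM across the PS80 replicates, against 2822, 2834, 3232, 2759.7 and 3579.6 CPM across the PS20 replicates, apart between groups (log2 fold change -0.44, edgeR adjusted p = 1.97e-05). MT-CO2, MT-ND1 and MT-CO1 had log2 fold changes of -0.50, -0.45 and -0.54 (edgeR adjusted p = 2.31e-05, 4.99e-04 and 6.12e-04). The share of all counts on mitochondrial genes, ribosomal RNAs included, was 2.16, 2.97, 1.67, 1.45 and 1.63% in PS80 replicates 1 to 5 and 2.44, 2.36, 2.58, 2.03 and 2.48% in PS20 replicates 1 to 5, and its part in these differences was not tested. Without PS80 replicate 1, 12 of the 13 mRNAs were lower.

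Glycolytic genes were higher with PS80. Of 29 tested genes of hypoxia and glycolysis 15 were higher and 3 lower (median 0.30). Over Control, 16 of these 29 genes were higher and 0 lower in PS80 cells (median 0.25), and 6 were higher and 10 lower in PS20 cells (median -0.025). With a replicate block 18 were higher and 1 lower in PS80 cells than in Control. LDHA (ENSG00000134333.14, chr11:18394560-18408425, plus strand), lactate dehydrogenase, had 1142, 1125, 1202, 1182 and 1255 CPM in PS80 replicates 1 to 5, against 654, 641, 637, 678 and 694 CPM in PS20 replicates 1 to 5. The 2 groups were far apart, with a log2 fold change of 0.84 ± 0.049 (SE), with a 95% interval from 0.74 to 0.94 and an edgeR adjusted p of 9.41e-12, and its level was 1044 ± 63.5 CPM in Control cells (SD, n = 5). PKM (ENSG00000067225.21, chr15:72199029-72231819, minus strand), pyruvate kinase, had 1077, 1154, 1154, 1120.0 and 1147 CPM in PS80 replicates 1 to 5, against 645, 618, 633, 655 and 711 CPM in PS20 replicates 1 to 5. Its log2 fold change was 0.79 ± 0.047 (SE), with a 95% interval from 0.70 to 0.89 and an edgeR adjusted p of 9.41e-12. SLC2A3, a glucose importer, and PFKP, a phosphofructokinase, had log2 fold changes of 0.83 and 0.85 (edgeR adjusted p = 1.26e-09 and 1.06e-10), with no overlap. Over Control, SLC2A3 had log2 fold changes of 0.28 in PS80 cells and -0.55 in PS20 cells, and PFKP of 0.75 in PS80 cells and -0.10 in PS20 cells. PFKP was not called with PS20 (edgeR adjusted p = 0.164). The 3 lower members were SLC16A3, a lactate exporter (-0.50, adjusted p = 0.00566 by edgeR), P4HA2, a collagen prolyl hydroxylase (-0.37, adjusted p = 1.58e-04), and the growth factor VEGFA (-0.34, adjusted p = 0.00718), the last chosen after its values were seen.

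DNA replication genes were higher with PS80 in 28 of 34 cases and lower in 0 (median 0.40). Over Control, 12 of these 34 genes were higher and 3 lower in PS80 cells (median 0.12), and 2 were higher and 22 lower in PS20 cells (median -0.29). MCM6 (ENSG00000076003.5, chr2:135839626-135876443, minus strand), a subunit of the replicative helicase, had 402, 381, 372, 370.4 and 379 CPM in PS80 replicates 1 to 5, against 279, 245, 254, 253 and 276 CPM in PS20 replicates 1 to 5. All PS80 libraries were above all PS20 libraries, with a log2 fold change of 0.54 ± 0.047 (SE), with a 95% interval from 0.45 to 0.64 and an edgeR adjusted p of 6.28e-09. MCM4 and MCM7, of the same helicase, had log2 fold changes of 0.58 and 0.53 (edgeR adjusted p = 7.10e-08 and 8.04e-08), and the groups of each were apart. Of 25 genes of mitosis and G2/M 16 were higher and 0 lower (median 0.21). MKI67, the proliferation marker, had 399.6, 379, 309, 422 and 349.9 CPM across the PS80 replicates, against 306, 221, 223, 249.5 and 221 CPM across the PS20 replicates, a log2 fold change of 0.61 (edgeR adjusted p = 4.07e-05). The checkpoint kinase BUB1B (0.49, adjusted p = 1.28e-05 by edgeR), the kinase AURKA (0.30, adjusted p = 4.07e-05) and the factor FOXM1 (0.35, adjusted p = 4.69e-05) were higher too. Over Control, MKI67 had log2 fold changes of -0.070 in PS80 cells and -0.68 in PS20 cells, and only the PS20 one passed (edgeR adjusted p = 0.580 and 6.13e-06). Without PS80 replicate 2, 29 replication and 16 mitosis genes were higher.

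Replication-dependent histone genes were not read with these. Of 19 tested 9 were higher (median 2.63), but 4 were without PS80 replicate 2 (median 0.36), the library that stands apart in these RNAs. The count of higher histone genes was 17 without PS80 replicate 5, 14 without PS80 replicates 1, 3 or 4, 5 without Control replicates 1, 3 or 5, 4 without PS20 replicates 3 or 4 and 3 without PS20 replicates 1, 2 or 5. H2BC12 had 27.1, 61.3, 27.4, 25.2 and 29.9 CPM across the PS80 replicates, against 15.5, 19.7, 14.8, 14.5 and 18.6 CPM across the PS20 replicates, with a log2 fold change of 1.11 (edgeR adjusted p = 0.00311). H2BC5, H2BC11 and H2AC6 had log2 fold changes of 2.40, 2.63 and 1.74, against 1.15, 1.21 and 0.66 without PS80 replicate 2. H2AC6 lost its call without PS20 replicates 1, 2, 3 or 5 (edgeR adjusted p 0.0549 to 0.0666). Histone genes also have near-identical copies.

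Of 14 tested brush border genes 4 were higher and 2 lower (median 0.20), a share of 42.9% called beside 35.2% over all genes. LCT (ENSG00000115850.10, chr2:135787850-135837184, minus strand), lactase, had 4.05, 5.01, 4.47, 7.50 and 4.26 CPM in PS80 replicates 1 to 5, against 1.92, 1.22, 0.979, 3.02 and 1.68 CPM in PS20 replicates 1 to 5. PS80 replicate 4 was the highest, and no PS20 library reached the lowest PS80 library. LCT had a log2 fold change of 1.56 ± 0.26 (SE), with a 95% interval from 1.02 to 2.09 and an edgeR adjusted p of 4.34e-05. Over Control, LCT was lower with both, with log2 fold changes of -0.79 in PS80 cells and -2.35 in PS20 cells (edgeR adjusted p = 0.00511 and 6.61e-08). Aminopeptidase N, ANPEP (0.65, adjusted p = 0.00160 by edgeR), the fructose importer SLC2A5 (0.64, adjusted p = 0.00180) and the guanylate cyclase GUCY2C (0.62, adjusted p = 0.00423) were higher. The amino acid transporter SLC7A9 (-0.74, adjusted p = 2.96e-05 by edgeR) and intestinal alkaline phosphatase ALPI (-0.32, adjusted p = 4.14e-04) were lower. Of 15 microvillus genes 5 were higher and 1 was lower (median 0.20), or 40.0% called. USH1C, harmonin, had 89.7, 94.95, 76.5, 74.4 and 76.2 CPM across the PS80 replicates, against 57.4, 43.9, 49.4, 49.1 and 49.4 CPM across the PS20 replicates (log2 fold change 0.73, edgeR adjusted p = 2.55e-07). Ezrin, EZR (0.39, adjusted p = 2.06e-06 by edgeR), the motor MYO1D (0.43, adjusted p = 3.63e-07), plastin PLS1 (0.26, adjusted p = 0.00569) and villin VIL1 (0.20, adjusted p = 0.00632) were higher. The lower one, ANKS4B, had a log2 fold change of -0.24 and lost its call without PS80 replicates 3, 4 or 5, PS20 replicates 1, 3, 4 or 5 or Control replicate 4 (edgeR adjusted p 0.0568 to 0.124). Without PS80 replicate 2, 2 microvillus genes were lower.

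The keratins of simple epithelia were higher. KRT18 (ENSG00000111057.11, chr12:52948871-52952906, plus strand) had 1733, 1852, 1766, 1715 and 1905 CPM in PS80 replicates 1 to 5, against 1241, 1203, 1115, 1136 and 1293 CPM in PS20 replicates 1 to 5. The groups did not overlap and the log2 fold change was 0.58 ± 0.072 (SE), with a 95% interval from 0.44 to 0.73 and an edgeR adjusted p of 2.10e-06. Its partner KRT8 had 3747, 4060.1, 3878, 3849.7 and 4252 CPM across the PS80 replicates, against 2508, 2637, 2606, 2661 and 3007 CPM across the PS20 replicates, with a log2 fold change of 0.56 (edgeR adjusted p = 2.70e-06). KRT19 was higher by 0.37 (edgeR adjusted p = 2.12e-04), with overlap. Over Control, KRT18 had log2 fold changes of -0.025 in PS80 cells and -0.61 in PS20 cells, and only the PS20 one passed (edgeR adjusted p = 0.825 and 4.70e-07).

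Tight junction genes were called no more often than all genes: of 31 tested 8 were higher and 2 lower (median 0.036), and 26 intervals lay within 1.5-fold. Without PS20 replicate 3, 5 were higher, and without PS20 replicate 2, 4 were lower. Genes with an annotated copy on a scaffold can lose reads in these tables, so that low counts of some junction genes are uncertain. AMOTL1 and AMOTL2, angiomotin-like scaffolds (0.27, adjusted p = 7.34e-04 and 0.25, adjusted p = 0.00256 by edgeR), MAGI1 (0.24, adjusted p = 0.00132) and paracingulin CGNL1 (0.42, adjusted p = 0.00282) were higher. MAGI2 was lower at -1.37 (edgeR adjusted p = 3.91e-04) at a low level, 0.968 ± 0.275 CPM in PS80 cells, 2.65 ± 0.963 CPM in PS20 cells and 0.487 ± 0.279 CPM in Control cells (SD, n = 5 each). PARD3, of the polarity complex, was lower (-0.16, adjusted p = 0.0177 by edgeR) and lost its call without PS80 replicate 4 (edgeR adjusted p 0.0525). Of 18 genes of adherens junctions and desmosomes 8 were higher and 1 was lower (median 0.063). VCL (ENSG00000035403.18, chr10:73995193-74121363, plus strand), vinculin, which ties cadherin complexes to actin, had 284, 248, 244, 262 and 268 CPM in PS80 replicates 1 to 5, against 182, 157, 169, 173 and 172 CPM in PS20 replicates 1 to 5. The groups were apart (log2 fold change 0.62 ± 0.052 (SE), with a 95% interval from 0.51 to 0.72 and an edgeR adjusted p of 3.82e-09). PKP2, plakophilin of desmosomes, had 460.3, 483, 502, 531 and 545 CPM across the PS80 replicates, against 340.2, 326, 335, 359.99 and 396 CPM across the PS20 replicates, a log2 fold change of 0.52 (edgeR adjusted p = 3.27e-07). NECTIN2 (0.41, adjusted p = 8.16e-06 by edgeR) and CTNNA1, alpha-catenin (0.27, adjusted p = 2.99e-05), were higher. CDH1, E-cadherin, was lower at -0.11 (interval -0.19 to -0.022), a call that ended without PS80 replicates 1, 3, 4 or 5, PS20 replicates 1, 2, 3, 4 or 5 or Control replicates 3, 4 or 5 (edgeR adjusted p 0.0537 to 0.0935). Without Control replicate 2, 2 members were lower.

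Of 28 genes of basement membrane, matrix and integrins 8 were higher and 4 lower (median 0.11). LAMA1 (ENSG00000101680.16, chr18:6941742-7117797, minus strand), a laminin chain, had 100.4, 134, 99.6, 117 and 94.4 CPM in PS80 replicates 1 to 5, against 39.6, 48.2, 50.3, 49.9 and 49.8 CPM in PS20 replicates 1 to 5. Every PS80 library was above every PS20 library, although PS20 replicate 1 was below the other PS20 libraries. LAMA1 had a log2 fold change of 1.20 ± 0.12 (SE), with a 95% interval from 0.94 to 1.45 and an edgeR adjusted p of 1.79e-06, and over Control -0.99 in PS80 cells and -2.19 in PS20 cells (edgeR adjusted p = 1.03e-05 and 8.13e-10). The integrin ITGA1 (0.75, adjusted p = 3.82e-09 by edgeR) and the laminins LAMA5 (0.53, adjusted p = 4.75e-07) and LAMA3 (0.51, adjusted p = 6.71e-05) were higher. LAMB2 (-0.53, adjusted p = 7.81e-05 by edgeR), ITGAV (-0.28, adjusted p = 6.28e-04), COL6A2 (-0.65, adjusted p = 0.0107) and COL4A1 were lower. Of 21 annexins, calpains and genes of membrane repair 10 were higher and 3 lower (median 0.20). S100A4 had 19.6, 22.2, 22.95, 22.7 and 25.1 CPM across the PS80 replicates, against 7.39, 10.8, 10.02, 11.4 and 11.7 CPM across the PS20 replicates (log2 fold change 1.13, edgeR adjusted p = 2.85e-08). S100A10 (0.66, adjusted p = 9.82e-09 by edgeR), its annexin partner ANXA2 (0.26, adjusted p = 0.00102) and calpain CAPN2 (0.45, adjusted p = 3.63e-07) were higher. S100P (ENSG00000163993.7, chr4:6693878-6697170, plus strand), a calcium-binding protein, moved the other way, with 12.1, 8.56, 5.07, 6.59 and 6.12 CPM in PS80 replicates 1 to 5, against 28.7, 33.6, 19.6, 21.2 and 13.4 CPM in PS20 replicates 1 to 5. The groups did not overlap, and the log2 fold change was -1.57 ± 0.25 (SE), with a 95% interval from -2.11 to -1.02 and an edgeR adjusted p of 2.93e-04. Over Control, S100P was higher with both, by 1.54 in PS80 cells and 3.10 in PS20 cells (edgeR adjusted p = 0.00349 and 2.09e-06). CAPN5 (-0.42) lost its call without PS80 replicates 1, 3, 4 or 5 or PS20 replicates 1, 2, 3 or 5 (edgeR adjusted p 0.0513 to 0.0911), and ANXA7 (-0.16), chosen after its values were seen, lost its call without PS80 replicates 1, 2 or 4 or PS20 replicates 2, 3, 4 or 5 (edgeR adjusted p 0.0686 to 0.112).

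Of 32 immediate early and MAPK feedback genes 11 were higher and 2 lower (median 0.14). That count rested on single libraries: it was 6 without PS80 replicate 1, PS80 replicate 2 or PS20 replicate 4, and 7 without PS20 replicate 2 or 5. EGR1 (ENSG00000120738.8, chr5:138465479-138469303, plus strand), a factor that growth factors raise within minutes, had 125, 125, 78.2, 68.4 and 66.2 CPM in PS80 replicates 1 to 5, against 54.6, 22.8, 54.1, 34.4 and 32.5 CPM in PS20 replicates 1 to 5. The groups were apart but wide, the log2 fold change was 1.21 ± 0.39 (SE), with a 95% interval from 0.37 to 2.05 and an edgeR adjusted p of 0.0280, and the call ended without PS80 replicates 1 or 2 or PS20 replicates 2, 4 or 5 (edgeR adjusted p 0.0605 to 0.0652). CCN1, a secreted matrix protein, had 44.3, 45.1, 57.5, 44.4 and 42.99 CPM across the PS80 replicates, against 21.4, 24.2, 31.7, 23.1 and 24.6 CPM across the PS20 replicates, a log2 fold change of 0.87 (edgeR adjusted p = 2.54e-07). SPRY2, an inhibitor of receptor signalling (0.41, adjusted p = 5.59e-04 by edgeR), BTG2 (0.37, adjusted p = 0.00207) and PHLDA1 (0.47, adjusted p = 0.00266) were higher, and the factors KLF4 (-0.74, adjusted p = 1.70e-04) and KLF10 (-0.34, adjusted p = 0.00297) were lower. Of 9 genes of EGF receptor signalling and the urokinase system, the receptor EGFR (0.41, adjusted p = 4.46e-05 by edgeR), its ligand HBEGF (0.36, adjusted p = 0.0152) and urokinase PLAU (0.74, adjusted p = 0.0386) were higher. The share called was 33.3%, beside 35.2% over all genes. The median of that list was 0.35, but -0.023 with replicates 1 and 2 alone and -0.082 with replicates 3 to 5 alone. Without PS80 replicate 2, 1 gene was lower, and PLAU, at under 2 CPM, lost its call without PS80 replicates 1, 2 or 4 or PS20 replicates 1, 2, 3 or 5 (edgeR adjusted p 0.0606 to 0.0823).

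Inflammatory genes differed little. Of 14 tested, 2 were higher and 1 was lower (median 0.090), with 12 intervals within 1.5-fold. NOS2 (ENSG00000007171.19, chr17:27756766-27800529, minus strand), inducible nitric oxide synthase, had 71.2, 73.5, 68.9, 57.5 and 71.3 CPM in PS80 replicates 1 to 5, against 47.5, 44.6, 40.7, 39.1 and 46.6 CPM in PS20 replicates 1 to 5. The groups were apart and the log2 fold change was 0.66 ± 0.076 (SE), with a 95% interval from 0.50 to 0.82 and an edgeR adjusted p of 3.91e-07. Over Control, NOS2 had log2 fold changes of 1.01 in PS80 cells and 0.36 in PS20 cells (edgeR adjusted p = 2.31e-09 and 9.68e-04). NFKB1 was higher by 0.24 (edgeR adjusted p = 0.00552), and lower than Control with both emulsifiers (-0.52 in PS80 cells and -0.76 in PS20 cells). The adhesion molecule ICAM1 had a log2 fold change of -0.27 and lost its call without PS80 replicates 3, 4 or 5 or PS20 replicates 2 or 5 (edgeR adjusted p 0.0585 to 0.0763). IRF1 did not pass (-0.30, interval -0.58 to -0.027). Of 13 interferon-stimulated genes 7 were lower and 1 was higher (median -0.22). OAS1 (-0.52, adjusted p = 5.45e-04 by edgeR), IFIT3 (-0.75, adjusted p = 0.00120), IFIT2 (-0.82, adjusted p = 0.00774) and PARP9 (-0.27, adjusted p = 0.00367) were lower, the IFIT genes at under 10 CPM. The higher one, STAT2 (0.21), lost its call without PS80 replicates 1 or 2 or PS20 replicates 1, 4 or 5 (edgeR adjusted p 0.0632 to 0.202).

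Of 28 apoptosis genes 8 were lower and 4 higher (median -0.070). BMF, a BH3-only protein, was lower (-0.59, adjusted p = 2.89e-07 by edgeR), as were XIAP, a caspase inhibitor (-0.31, adjusted p = 0.00374), the TRAIL receptor TNFRSF10B (-0.26, adjusted p = 0.00589) and caspase CASP8 (-0.23, adjusted p = 0.00984). BAX (0.35, adjusted p = 9.23e-05 by edgeR), cytochrome c CYCS (0.27, adjusted p = 0.0142), BCL2L1 (0.19, adjusted p = 0.0267) and CASP2 (0.17, adjusted p = 0.0243) were higher. BCL2L1 and CASP2 were chosen after their values were seen. BCL2L1 lost its call without PS80 replicates 2 or 5 or PS20 replicates 2 or 3 (edgeR adjusted p 0.0657 to 0.0877) and CASP2 without PS80 replicates 3 or 4 or PS20 replicates 3 or 5 (edgeR adjusted p 0.0570 to 0.0638), and 2 genes were higher without PS20 replicate 3. Lysosome and autophagy genes were mostly lower, 15 of 26 with 4 higher (median -0.21). CTSL (ENSG00000135047.16, chr9:87724051-87731469, plus strand), a cathepsin, had 57.2, 59.1, 59.02, 59.1 and 60.8 CPM in PS80 replicates 1 to 5, against 76.4, 90.7, 83.6, 92.5 and 91.3 CPM in PS20 replicates 1 to 5. GABARAPL1, which is attached to autophagosome membranes, had 108, 108, 106, 95.9 and 106 CPM across the PS80 replicates, against 131, 149, 173, 162 and 169 CPM across the PS20 replicates. For both genes the PS80 libraries were all lower, with log2 fold changes of -0.56 and -0.58 (edgeR adjusted p = 2.79e-07 and 4.91e-07). MAP1LC3B (-0.39, adjusted p = 6.49e-06 by edgeR) and WIPI1 (-0.61, adjusted p = 8.25e-05), also of autophagosomes, were lower. CTSB (0.24, adjusted p = 0.00111 by edgeR), CTSZ (0.24, adjusted p = 0.00106), the galactosidase GLA (0.48, adjusted p = 2.69e-05) and TFEB, the factor of lysosomal genes (0.71, adjusted p = 0.00136), were higher, with CTSB and TFEB chosen after their values were seen.

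Among called genes of at least 5 CPM whose groups did not overlap, histone genes left out, the highest log2 fold change was that of NPPB (ENSG00000120937.9, chr1:11857464-11858945, minus strand), a natriuretic peptide, with 7.29, 7.04, 7.60, 9.77 and 10.4 CPM in PS80 replicates 1 to 5, against 1.48, 2.84, 2.42, 2.12 and 2.28 CPM in PS20 replicates 1 to 5. PS80 stood near the Control level of 6.84 ± 2.84 CPM (SD, n = 5), and the log2 fold change between emulsifiers was 1.90 ± 0.25 (SE), with a 95% interval from 1.39 to 2.41 and an edgeR adjusted p of 2.70e-06. The glutamate importer SLC1A3 (ENSG00000079215.15, chr5:36596588-36688334, plus strand) had 179, 172, 233, 236 and 227 CPM in PS80 replicates 1 to 5, against 80.4, 66.7, 90.4, 80.3 and 87.1 CPM in PS20 replicates 1 to 5. No libraries overlapped, and its log2 fold change was 1.36 (edgeR adjusted p = 7.25e-06). Beside LAMA1, EGR1 and S100A4, described above, the others taken at this end were TAGLN, transgelin (1.35, adjusted p = 2.89e-05 by edgeR), of whose exonic bases 47.8% overlap another gene, the FGF co-receptor KLB (1.33, adjusted p = 2.98e-06), the muscle ankyrin repeat protein ANKRD1 (1.15, adjusted p = 1.34e-04), the bile acid importer SLC10A1 (1.11, adjusted p = 2.45e-05), the lectin-like receptor OLR1 (1.05, adjusted p = 0.00256), creatine kinase CKB (1.01, adjusted p = 2.03e-05) and carbonic anhydrase CA2 (0.999, adjusted p = 1.46e-05). Over Control, ANKRD1 and CKB were higher with PS80 (1.17 and 0.60, edgeR adjusted p = 1.60e-04 and 0.00160), while NPPB, SLC1A3, TAGLN, KLB, SLC10A1, OLR1 and CA2 were not called with PS80 and were lower with PS20, from -1.20 for CA2 to -1.64 for TAGLN. With a replicate block OLR1 was also lower with PS80 than Control (-0.32, adjusted p = 2.33e-04 by edgeR).

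At the other end, NGFR (ENSG00000064300.9, chr17:49495293-49515008, plus strand), the low-affinity neurotrophin receptor, had 1.62, 1.38, 1.34, 1.25 and 2.57 CPM in PS80 replicates 1 to 5, against 6.51, 16.7, 13.9, 15.5 and 13.4 CPM in PS20 replicates 1 to 5. All PS20 libraries were above all PS80 libraries, the highest PS80 value being that of replicate 5, and the log2 fold change was -2.96 ± 0.28 (SE), with a 95% interval from -3.54 to -2.38 and an edgeR adjusted p of 1.49e-07. Over Control, where it was at 0.208 ± 0.220 CPM (SD, n = 5), NGFR was higher with both emulsifiers (edgeR adjusted p = 5.39e-04 and 2.56e-09); 27.2% of its exonic bases overlap another gene. SCNN1A (ENSG00000111319.13, chr12:6346843-6377730, minus strand), the alpha subunit of the epithelial sodium channel, had 64.6, 89.1, 64.7, 58.4 and 72.4 CPM in PS80 replicates 1 to 5, against 176, 199, 158, 159 and 158 CPM in PS20 replicates 1 to 5. Its groups were apart, with a log2 fold change of -1.26 ± 0.11 (SE), with a 95% interval from -1.51 to -1.02 and an edgeR adjusted p of 4.81e-07. LAMP3, a lysosomal membrane protein (-1.53, adjusted p = 6.76e-10 by edgeR), CYP2W1, a cytochrome P450 (-1.33, adjusted p = 1.49e-07), and MST1, macrophage stimulating protein (-1.25, adjusted p = 7.64e-05), were lower as well. Over Control, SCNN1A had log2 fold changes of -0.079 in PS80 cells and 1.19 in PS20 cells, and LAMP3 of 0.027 in PS80 cells and 1.55 in PS20 cells. Neither gene was called with PS80 (edgeR adjusted p = 0.653 and 0.901).

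Several of the largest changes from Control were not called between the emulsifiers with all libraries. CYP1A1 (ENSG00000140465.15, chr15:74719542-74725536, minus strand), the cytochrome P450 that the aryl hydrocarbon receptor induces, had 121, 95.6, 94.8, 76.02 and 86.8 CPM in PS80 replicates 1 to 5, against 115, 169, 73.4, 68.4 and 59.5 CPM in PS20 replicates 1 to 5, and 9.76 ± 1.23 CPM in Control cells (SD, n = 5). The emulsifier groups overlapped, with a log2 fold change of -0.024 and an interval of -0.56 to 0.52 (edgeR adjusted p = 0.954), which lies within 1.5-fold on either side. With replicates 3 to 5 alone, every PS80 library was above every PS20 library and the log2 fold change was 0.33 (edgeR adjusted p = 9.92e-04), and with replicates 1 and 2 alone it was -0.41 (edgeR adjusted p = 0.134). Over Control, the log2 fold changes of CYP1A1 were 3.26 in PS80 cells and 3.28 in PS20 cells (edgeR adjusted p = 1.11e-05 and 3.30e-06). HIP1, an endocytosis adaptor, was higher than Control with both (1.57 in PS80 cells and 1.41 in PS20 cells) and had a PS80 minus PS20 value of 0.17 (interval -0.14 to 0.48). FAM13B was lower than Control with both (-1.42 in PS80 cells and -1.45 in PS20 cells), with 0.035 between them (interval -0.51 to 0.58). The glucose transporter SLC2A2 (0.22, interval -0.14 to 0.57) and MYBPH (0.47, interval -0.10 to 1.04) were likewise lower than Control with each and not called between the emulsifiers. With replicates 3 to 5 alone MYBPH was higher with PS80, at 0.35 (edgeR adjusted p = 0.0128). The intervals of MYBPH and of CYP1B1 (0.41, -0.13 to 0.95) reach past 1.5-fold, so for these a difference of that size is not excluded by the interval. SI, sucrase-isomaltase, had 5.77, 6.34, 3.58, 5.34 and 4.04 CPM in PS80 replicates 1 to 5, against 3.40, 1.76, 2.59, 3.91 and 2.88 CPM in PS20 replicates 1 to 5, and did not pass (0.83, interval 0.10 to 1.55, edgeR adjusted p = 0.0676). It passed without Control replicates 1, 3 or 5 (edgeR adjusted p 0.0258 to 0.0460), and with replicates 1 and 2 alone (log2 fold change 1.26, edgeR adjusted p = 0.00247). SI also passed with the 10 emulsifier libraries alone (0.82, edgeR adjusted p = 0.00349). A fit that was not robust (edgeR adjusted p = 0.0316) and DESeq2's Wald test (adjusted p = 0.0499) called it too. With replicates 3 to 5 alone SI did not pass (0.49, edgeR adjusted p = 0.153). CEACAM5 had a log2 fold change of -1.16 with an interval of -2.31 to -0.010 (edgeR adjusted p = 0.111), and -0.55 without PS20 replicate 2. It was called lower with replicates 1 and 2 alone (-1.52, adjusted p = 0.00666 by edgeR) and with replicates 3 to 5 alone (-0.80, adjusted p = 0.00444). Over Control, CEACAM5 was not called with PS80 (1.92, edgeR adjusted p = 0.0626). With a replicate block it was higher with PS80 than Control (1.9, edgeR adjusted p = 0.00102).

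Others did separate them. TXNIP, which limits glucose uptake, was lower than Control with each (-1.64 in PS80 cells and -0.71 in PS20 cells) and lower with PS80 than with PS20, at 13.9 ± 2.78 CPM in PS80 cells, 27.4 ± 7.41 CPM in PS20 cells and 43.6 ± 6.50 CPM in Control cells (SD, n = 5 each) (log2 fold change -0.92, edgeR adjusted p = 0.00129). CYP4X1, a cytochrome P450, had 3.95, 6.31, 8.05, 6.93 and 5.23 CPM in PS80 replicates 1 to 5, against 1.48, 1.35, 2.30, 2.35 and 2.16 CPM in PS20 replicates 1 to 5. Every PS80 library was above every PS20 library, with a log2 fold change of 1.58 (edgeR adjusted p = 1.18e-06), and both were lower than Control (-1.04 in PS80 cells and -2.62 in PS20 cells). The phosphatase PTPRS (0.56, adjusted p = 0.0154 by edgeR), the glycosyltransferase B4GALNT4 (0.44, adjusted p = 0.00945) and nebulin, NEB (0.74, adjusted p = 0.0189), were higher with PS80, and the collagen COL6A2 was lower. Over Control, PTPRS had 1.61 in PS80 cells and 1.05 in PS20 cells and B4GALNT4 1.58 in PS80 cells and 1.14 in PS20 cells. The call of NEB ended without PS20 replicate 3 (edgeR adjusted p 0.0546).

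**Figure D4:**
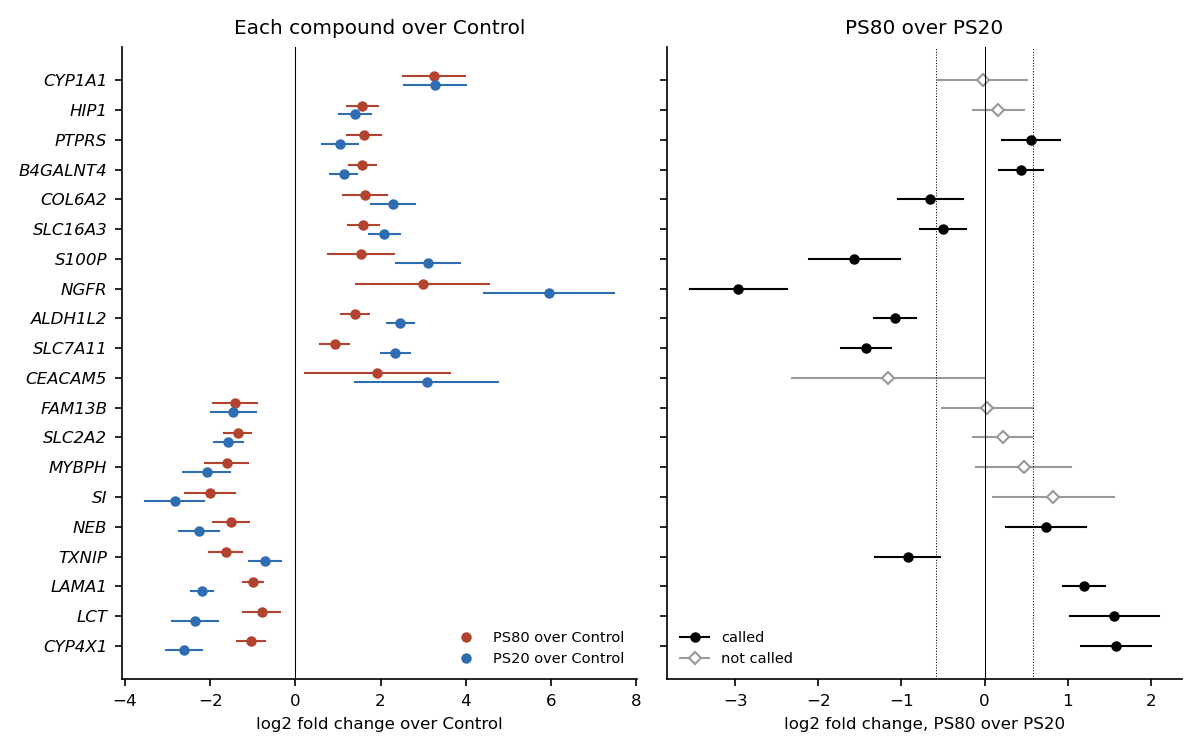
Log2 fold changes of 20 genes with 95% intervals (n = 5 per group): left, PS80 and PS20 each over Control, which share the Control libraries; right, PS80 minus PS20, with dotted lines at 1.5-fold. CYP1A1 lies near 3.3 over Control with each emulsifier and near 0 between them.

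The main differences did not rest on PS80 replicate 2. Without it, 23 of 26 cholesterol genes, 19 of 29 stress response genes, 19 of 27 genes of the unfolded protein response and 11 of 14 small nucleolar RNA hosts were lower, and 15 of 29 hypoxia and glycolysis genes and 29 of 34 replication genes were higher. With PS80 replicate 2 as the only PS80 library, set against the 5 PS20 libraries counted by the same version, the medians were -0.47 for cholesterol synthesis, -0.32 for the stress response, -0.28 for the unfolded protein response, -0.73 for the small nucleolar RNA hosts, 0.29 for hypoxia and glycolysis and 0.35 for replication. The spread of that lone library was assumed to be like that of the other groups. The medians of 4 other lists had the other sign in that library, those of ribosome biogenesis, heat shock chaperones, lipid droplets and sterol efflux, as given above. With replicates 1 and 2 alone these medians were -0.52, -0.38, -0.30, -0.74, 0.28 and 0.41 in the same order, and with replicates 3 to 5 alone -0.46, -0.39, -0.29, -0.61, 0.27 and 0.46. The median of the histone list, in contrast, was 2.63 with all libraries, 0.36 without PS80 replicate 2 and 4.10 with it as the only PS80 library.

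**Figure D5:**
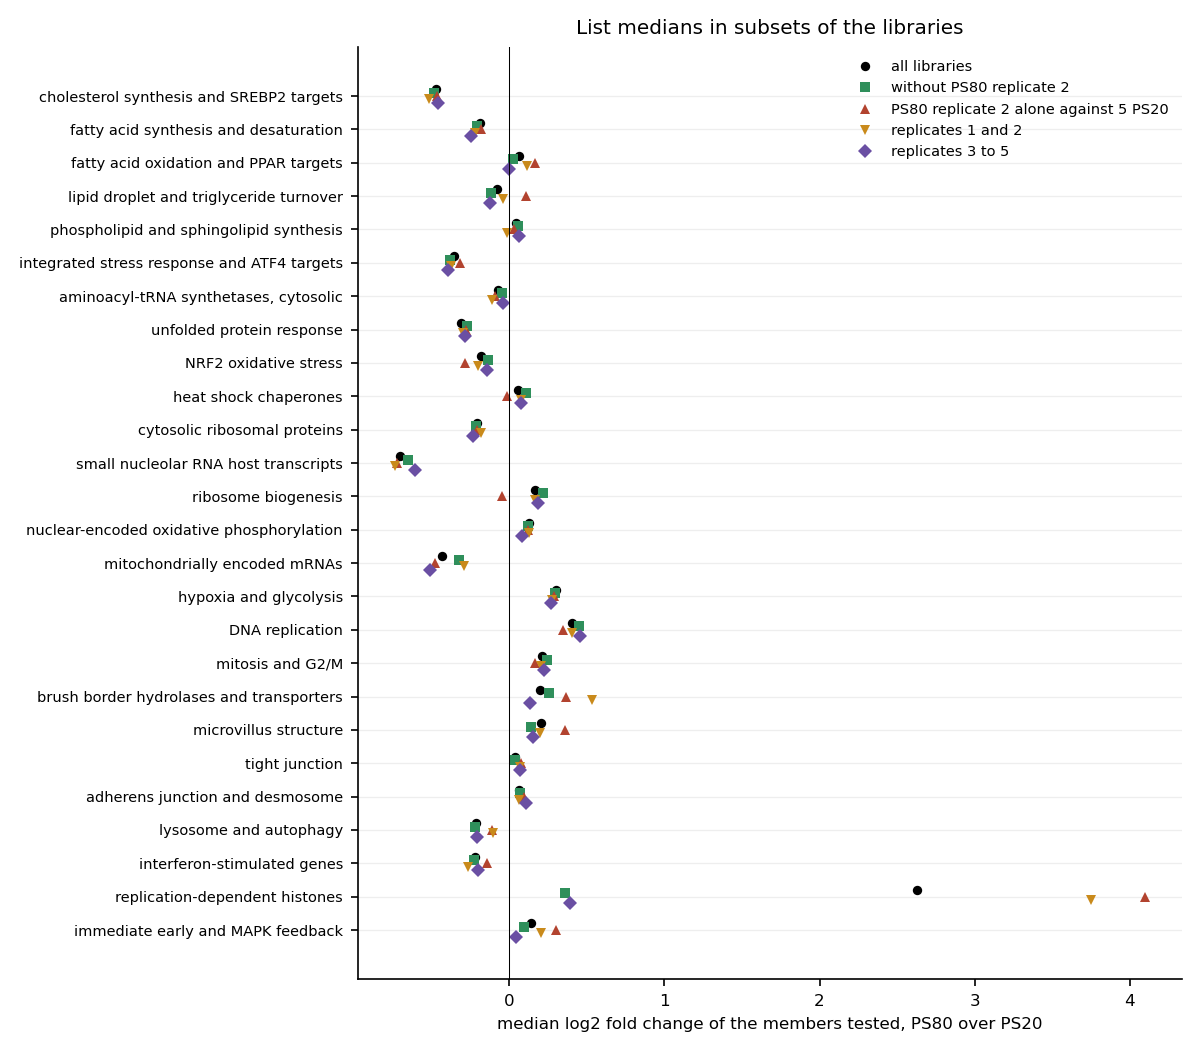
Median PS80 minus PS20 log2 fold change of 26 gene lists in all libraries, without PS80 replicate 2, with PS80 replicate 2 alone against the 5 PS20 libraries, and within replicates 1 and 2 and replicates 3 to 5. The medians of cholesterol synthesis lie between -0.52 and -0.46 in all 5 sets, while those of the histones spread from 0.36 to 4.10.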

How the data were processed

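RNA of Caco-2 cells was measured by sequencing in 15 libraries, 5 per group, made after poly(A) selection according to the labels. The deposited files, 1 per library, give raw counts of reads by gene, obtained by the authors with featureCounts 2.0.3 in 4 PS80 libraries and 2.0.0 in the other 11, per the file headers, on GENCODE release 42 for reads of mapping quality 10 or more, without a strand or pair option. Overlapping and antisense genes therefore share or lose reads, as do near-identical copies. Trimming with cutadapt, alignment with STAR 2.7.9a to GRCh38 and testing with DESeq2 1.32.0 are from the submitters' processing notes. The tables list 69215 genes, 62672 of them (90.5%) with a symbol in the gene name table, and 6519 on scaffolds and patches had 0 counts throughout.

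From these counts, edgeR 4.0.16 (R 4.3.3, limma 3.58.1) was used with filterByExpr (minimum count 10, minimum total 15), trimmed mean of M-values factors of 0.978 to 1.02 and a robust quasi-likelihood fit with 1 term per group over all 15 libraries. Adjusted p is by Benjamini-Hochberg over 12769 genes with a threshold of 0.05, and the biological coefficient of variation shared by all genes was 8.91%. CPM are scaled by the same factors. The median 95% interval reached 0.187 on the log2 scale to either side, and the parts of depth and of replicate spread in that width were not tested. Replicates of a group differed by more than sampling noise (chi-square per degree of freedom of at least 1.69), so none was counted as a duplicate. The fit was tested on simulated data.

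Members and gene lists were chosen with earlier results of these data known, so no count over them is independent evidence. The rule for named genes took 12 genes at either extreme of the log2 fold change, if called, of at least 5 CPM and with groups that did not overlap. Clone-based names, antisense and small RNAs, pseudogenes and histones were left out. From every list came 4 genes of smallest p in its main direction and 2 in the other, where at least 1 in 4 of 5 or more tested members passed, up to 4 from the lists of junctions, inflammation, apoptosis and aryl hydrocarbon receptor targets, and the 6 highest and 6 lowest changes of each emulsifier from Control. A few genes that the rule took are not reported here. Motif positions are distances in bases from the first base of the gene in RefSeq promoters, negative before it. Alternatives were other scaling, no filter, DESeq2 1.42.0, the 10 emulsifier libraries alone, a replicate block, a term for replicates 1 and 2 against 3 to 5, subsets of replicates, each library left out and thinning of each library to the smallest total. A fit that was not robust was added after seeing the data. Same-numbered PS80 and Control libraries correlated at 0.102 to 0.304 across genes in their deviations from group means, all 5 over 0.1, so a replicate block for that comparison was added too.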

Additional observations from a re-analysis of the deposited data

Results flagged for a closer look

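In 460 groups of 5 values, the highest or lowest library was examined for a gap to the nearest of the others above 0.71 of the group's range. 37 groups (8.04%) met this, beside about 1 in 20 (5%) by chance; 20 were in PS80, 12 of them from replicate 2, and 17 in PS20.

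PS80 replicate 2 was the highest library for the summed histones, at 1018 CPM (others 71.6 to 89.6 CPM), and for H2BC12, at 61.3 CPM (others 25.2 to 29.9 CPM), H2BC5, at 39.01 CPM (others 5.11 to 6.41 CPM), H2BC11, at 16.6 CPM (others 1.82 to 2.83 CPM), and H2AC6, at 25.3 CPM (others 4.15 to 5.79 CPM). It was also the highest for CDIPT, at 85.6 CPM (others 76.6 to 77.3 CPM), APOH, at 79.3 CPM (others 66.4 to 69.5 CPM), P4HA2, at 88.5 CPM (others 75.9 to 78.9 CPM), UQCRC1, at 389.9 CPM (others 327 to 345 CPM), ALPI, at 94.6 CPM (others 77.9 to 80.5 CPM), and LAMB2, at 88.04 CPM (others 60.2 to 66.2 CPM), and the lowest for HSPE1, at 104 CPM (others 126 to 134 CPM). PS80 replicate 1 was the highest for HMGCS1, at 475 CPM (others 388 to 409 CPM), INSIG1, at 264 CPM (others 176 to 199.9 CPM), and SLC7A1, at 283 CPM (others 229 to 244 CPM). PS80 replicate 4 was the lowest for RPS27, at 693 CPM (others 756 to 768 CPM), and GABARAPL1, at 95.9 CPM (others 106 to 108 CPM), and the highest for LCT, at 7.50 CPM (others 4.05 to 5.01 CPM). PS80 replicate 3 was the highest for CCN1, at 57.5 CPM (others 42.99 to 45.1 CPM), and PS80 replicate 5 for NGFR, at 2.57 CPM (others 1.25 to 1.62 CPM).

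PS20 replicate 3 had the highest total, 17251564 counts (others 6749086 to 8829612), and the highest H2BC11, at 1.44 CPM (others 0.675 to 0.783 CPM). PS20 replicate 2 was the highest for the summed goblet cell markers, at 944 CPM (others 777 to 825 CPM), and for AGR2, at 916 CPM (others 749 to 793 CPM), LPCAT4, at 12.3 CPM (others 10.1 to 10.7 CPM), DDIT4, at 76.7 CPM (others 45.5 to 53.2 CPM), ATF3, at 24.6 CPM (others 14.7 to 16.9 CPM), RPL10A, at 994 CPM (others 852 to 878 CPM), EPB41L4A-AS1, at 72.6 CPM (others 62.4 to 64.8 CPM), MAGI2, at 4.32 CPM (others 1.92 to 2.51 CPM), and BMF, at 109 CPM (others 88.05 to 93.6 CPM), and the lowest for LAMA3, at 20.3 CPM (others 27.9 to 29.7 CPM). PS20 replicate 1 was the highest for EHHADH, at 91.4 CPM (others 71.8 to 76.4 CPM), and the lowest for COX5A, at 156 CPM (others 179 to 187 CPM), and LAMA1, at 39.6 CPM (others 48.2 to 50.3 CPM). PS20 replicate 5 was the highest for SLC2A5, at 12.9 CPM (others 7.83 to 9.04 CPM), and PS20 replicate 4 the lowest for PTPRS, at 13.1 CPM (others 20.96 to 23.5 CPM). The part of these libraries in each result, beyond the values given without them, was not tested.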

How the results depend on the processing

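The count of 4501 called genes was 4497 with DESeq2's size factors, 4527 with a fit that was not robust (chosen after seeing the data), 4221 with no filter, 4549 with the 10 emulsifier libraries, 3352 with libraries thinned to the smallest total and 4485 with DESeq2's Wald test. It was 1644 (894 higher and 750 lower) with replicates 1 and 2 alone, where fewer samples enter, and 2338 (1297 higher and 1041 lower) with PS80 replicate 2 as the only PS80 library. With no filter 426 genes were past 2-fold (128 higher and 298 lower), and with PS80 replicate 2 alone 124 were past 2-fold higher; the cause was not tested. Leaving out each library in turn gave 3804 to 4649 called genes (1955 to 2361 higher, 1849 to 2288 lower), 185 to 228 past 2-fold (60 to 90 higher, 123 to 166 lower) and 8895 to 9272 intervals within 1.5-fold.

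Same-numbered PS80 and PS20 libraries correlated at 0.0741 to 0.29 in their deviations, 3 of 5 over 0.1, and differently numbered ones at -0.247 to 0.171. In this comparison 5 of 10 libraries correlated best with their own number, as did 5 of 10 for PS80 against Control. The main test did not take the numbers as pairs, so any structure shared by same-numbered libraries stays in its spread. With a replicate block 5451 genes were called, and with a term for replicates 1 and 2 against 3 to 5, 5367. Of the named genes not called, both gave edgeR calls to SI (0.71, adjusted p = 0.00857), CEACAM5 (-1.18, adjusted p = 0.00168), IRF1 (-0.29, adjusted p = 0.0316) and MYBPH (0.54, adjusted p = 2.03e-05); values are log2 fold changes with the block. Against Control, the block gave 5179 genes called with PS80 (2668 higher and 2511 lower). Of single genes whose PS80 call over Control is stated, it changed only those of OLR1 and CEACAM5. List counts moved too. With the block 17 stress response genes, 12 synthetases, 43 ribosomal protein genes and 14 replication genes were higher with PS80. Without it these were 15, 10, 36 and 12. Lower genes of the unfolded protein response were 5 with it and 4 without. Calls of PS20 over Control were not compared with the block.

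Of 221 genes named with a test, 209 were called, and 190 of these stayed called without any 1 library. 59 lost their call with replicates 1 and 2 alone, 11 with replicates 3 to 5 alone, 67 with PS80 replicate 2 alone and 18 with libraries thinned to the smallest total. ICAM1 changed sign, to 0.0358 (edgeR adjusted p = 0.859), with PS80 replicate 2 as the only PS80 library.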
